A study of Homo sapiens with 9 samples.

Results

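The 50 genes described here build and run the DNA replication machinery: 6 origin recognition subunits, the licensing factors, the MCM helicase, the firing factors, the sliding clamp and its loader, the replicative polymerases, single-strand DNA binding proteins, nucleotide-synthesis enzymes and the E2F and cyclin E regulators. They were chosen by symbol from knowledge of the pathway, with earlier results of these data known. All 50 matched 1 gene identifier each among the 60683 in the count files. All 50 passed the filter on low counts in every comparison, and the smallest count of any of them in any library was 183.

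RNA was sequenced from HEK293T, a human cell line of embryonic kidney origin in which the SV40 large T antigen is expressed. Parental cells, clone 15 and clone 37 gave 3 libraries each, 9 in all. Both clones were grown from single sorted cells after piggyBac had inserted 2 luciferase reporters into the genome: ATG-(CAG)60-Myc-NLuc, and its partner with no repeat, ATG-(CAG)0-Myc-FLuc. By the labels, expression of both is high in clone 37 and low in clone 15, and the parental line is that from which they were made. Each reporter level is represented by 1 clone, so the level cannot be told apart from anything else in which the clones differ. All 3 lines were cultured in the same medium. Clone 15 was read at 100 bp and the other libraries at 75 bp, so for clone 15 an effect of read length cannot be told apart from one of the clone.

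Gene counts summed to between 10334090 and 38093340 per library, with the 3 clone 15 libraries deepest. Multimapping read pairs made up 4.59% to 5.98% in clone 15, 11.86% to 13.95% in parental and 10.4% to 11.7% in clone 37. Pairs in no feature made up 33.7% to 34.6% in clone 15, 19.2% to 28.8% in parental and 25.7% to 29.9% in clone 37. Whether this affected genes that share sequence with other genes was not tested. Parental replicate 2 stood apart: 59.7% of its read pairs fell in genes, against 50.9% to 55.6% in the other 8 libraries. By chi-square over degrees of freedom of the counts, it differed from the other parental libraries by 11.4 and 11.6, and they from each other by 1.99. Clone 15 replicate 2 likewise differed from its fellows by 9.97 and 8.20, and they by 4.53. Nothing in the labels says that replicates were separate cultures, so p values measure the spread between these libraries, which may be technical. All 6 markers of the line had counts in each group; their summed level ranged from 1250 to 1540 CPM (counts per 1000000 gene counts) in parental, 4021 to 4175 in clone 15 and 773 to 841 in clone 37, and most of that spread was NEFM. Of 6 markers of other cell types, CD3E was at 0 in every library, and the summed level, nearly all COL1A1, was 33.1 to 35.5 CPM in parental, 48.6 to 108 in clone 15 and 18.5 to 21.2 in clone 37.

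Replication begins with licensing in G1, when ORC, CDC6 and CDT1 load the MCM2-7 helicase onto DNA and geminin later blocks reloading. Firing in S phase needs the CDC7-DBF4 kinase, MCM10, CDC45 and GINS, after which polymerase alpha-primase starts each strand and polymerases delta and epsilon extend it behind PCNA. Most of these genes are known as targets of E2F factors, which the retinoblastoma proteins hold in check and which cyclin E-CDK2 activity frees. Large T antigen binds the retinoblastoma proteins, so this line is known to run with E2F activity largely unrestrained.

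A gene was called changed at an adjusted p under 0.05 in edgeR's quasi-likelihood test, with Benjamini-Hochberg (BH) adjustment over all genes tested. In clone 37 against parental, 29 of the 50 genes were called, 14 higher and 15 lower, where 54.0% of all 16501 genes tested were called, 26.7% higher and 27.3% lower. In clone 15 against parental 28 were called, 6 higher and 22 lower, where 51.4% of 17703 genes were called, 25.1% higher and 26.2% lower. Between the clones 36 were called, 25 higher and 11 lower in clone 37, where 57.7% of 17712 genes were called, 28.7% higher and 29.0% lower. The share of members called in either clone was thus near that of all genes. The split between directions was even in clone 37, and in clone 15 it lay on the lower side. In bulk RNA, fewer cells in S phase and less RNA per cell cannot be told apart.

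The changes were small. In clone 37, 2 members, MCM5 and POLD1, were called with a change of at least 1.5-fold, both lower, where 21.8% of all genes tested were, 9.44% higher and 12.3% lower. In clone 15 there were 8, of which E2F1 was higher and 7 were lower, where 24.0% of all genes were, 11.6% higher and 12.4% lower. Between the clones there were 11, 8 higher and 3 lower in clone 37, where 26.1% of all genes were, 12.1% higher and 14.0% lower. The median log2 fold change of the members was 0.013 in clone 37 and -0.151 in clone 15, and that of all genes tested was 0.024 and 0.015. Without parental replicate 2 the clone 37 median was 0.041 with 18 members higher and 17 lower, and without parental replicate 3 it was -0.039. The clone 15 median was -0.111 without parental replicate 2 and -0.206 without parental replicate 1 or 3. Between the clones it was 0.138, against -0.002 for all genes tested, and 0.067 without clone 15 replicate 2. The summed level of the 50 genes was 6778 ± 177 CPM in parental, 6070 ± 39.2 in clone 15 and 6565 ± 67.5 in clone 37 (n = 3, SD).

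**Figure D1:**
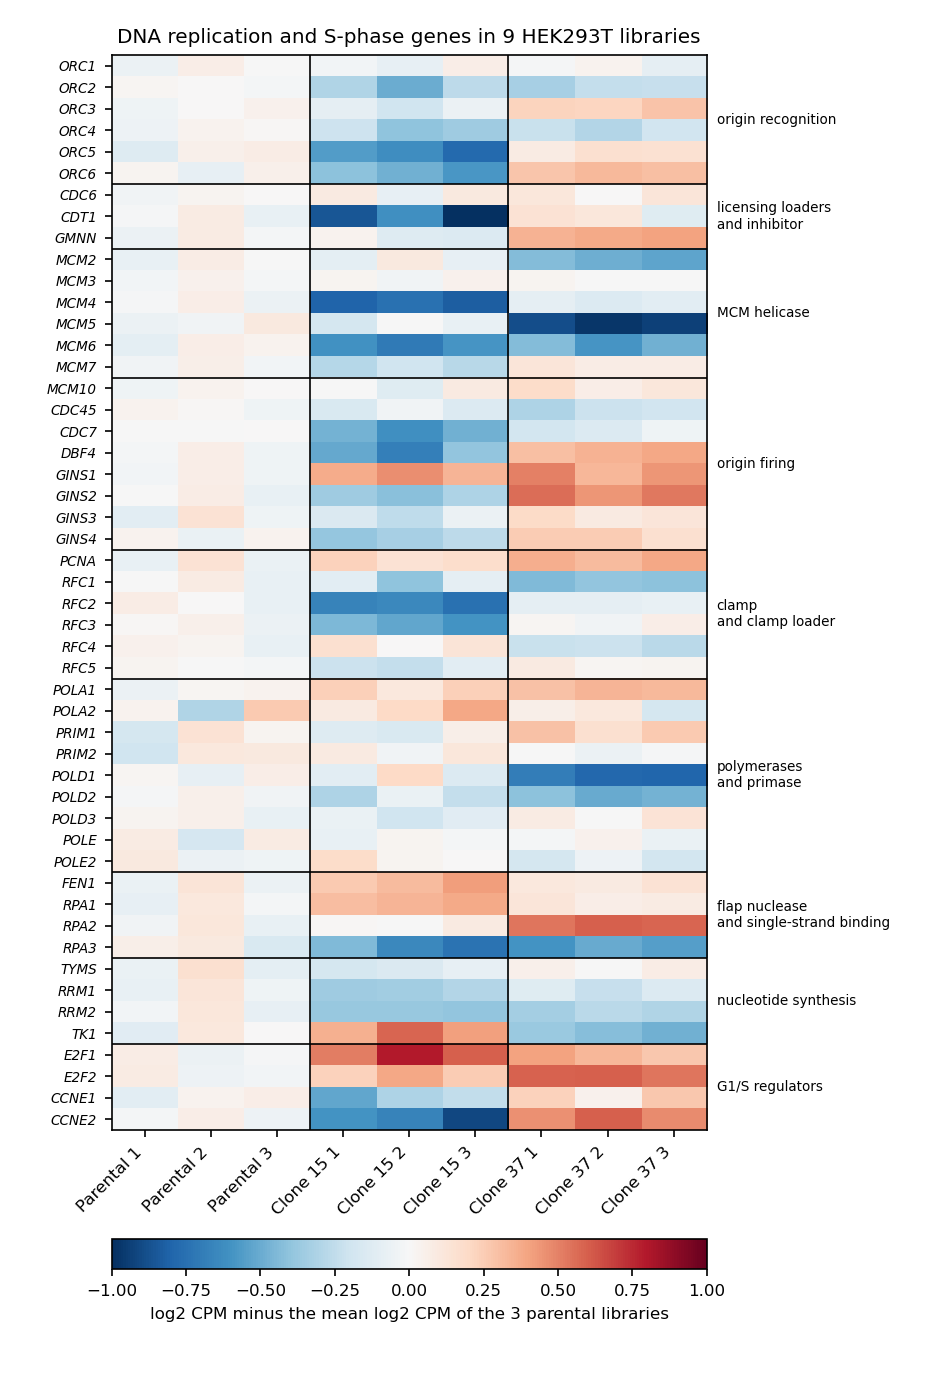
Each row is 1 of the 50 genes, grouped by role, and each column 1 of the 9 libraries; colour gives log2 CPM minus the mean of the 3 parental libraries, from -1 to 1. Most rows of clone 15 are blue, with CDT1, MCM4 and CCNE2 among the deepest, whereas clone 37 holds both red and blue rows, with MCM5 the deepest blue.

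Matches of 7 letters to the E2F binding motif were sought in the promoters, since E2F1 and E2F2 are members and regulate many of the others. RefSeq promoters on GRCh38.p14, from 250 bases before to 50 after the annotated start, were had for 43 of the 50 genes. The letters TTCCCGC occurred on either strand in 15 of them, against 8.60% of the promoters of protein-coding genes. The letters TTGGCGC occurred in 12, against 4.19%, and TTCGCGC in 8, against 3.17%. The fourth form, TTGCCGC, occurred in 1, against 3.00%. At least 1 of the 4 occurred in 28 members (65.1%), in 17.1% of the promoters of 15843 protein-coding genes and 13.1% of all 27305 promoters. At least 2 matches occurred in 12 members (27.9%) and in 2.57% of protein-coding genes. Matches on opposite strands can overlap, as they did in 5 members, and were then counted separately. The 6 stretches printed here are from genes with different results: E2F1 and E2F2 rose in both clones, POLA1 rose in clone 37, CDT1 fell in clone 15, MCM6 fell in both and MCM3 was called in no comparison. Each lies before the RefSeq start and reads 5′ to 3′ on the gene's strand, with the matching letters in capitals.
E2F1, chr20:33686392-33686465, minus strand: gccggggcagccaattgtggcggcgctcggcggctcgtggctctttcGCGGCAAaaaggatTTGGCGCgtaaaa
E2F2, chr1:23531262-23531313, minus strand: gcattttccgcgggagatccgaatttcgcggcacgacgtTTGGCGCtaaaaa
CDT1, chr16:88803709-88803778, plus strand: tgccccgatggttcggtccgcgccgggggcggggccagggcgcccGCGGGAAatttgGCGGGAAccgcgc
MCM6, chr2:135876517-135876600, minus strand: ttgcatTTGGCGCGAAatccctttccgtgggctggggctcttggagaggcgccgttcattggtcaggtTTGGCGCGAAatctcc
MCM3, chr6:52284753-52284921, minus strand: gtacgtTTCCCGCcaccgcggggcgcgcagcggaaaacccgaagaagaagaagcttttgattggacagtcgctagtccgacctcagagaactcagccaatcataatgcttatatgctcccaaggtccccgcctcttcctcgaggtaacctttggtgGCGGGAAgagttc
POLA1, chrX:24693775-24693810, plus strand: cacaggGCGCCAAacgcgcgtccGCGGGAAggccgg

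MCM6 holds 4 matches, as 2 pairs that overlap on opposite strands, and MCM3 holds 1 at either end of its stretch. Genes with and without the letters moved in both directions. In clone 37, where 26.7% of all genes were called higher and 27.3% lower, 8 of the 28 members with a match were higher and 6 lower, with a median log2 fold change of 0.013. Of the 15 with a promoter but no match, 3 were higher there and 7 lower (median -0.061). In clone 15, where 25.1% of all genes were higher and 26.2% lower, 4 of the 28 were higher and 10 lower (median -0.088), and 2 of the 15 were higher and 8 lower (median -0.235). The difference between members with and without a match was not tested. A match describes letters only and says nothing of binding in these cells.

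E2F1 and E2F2 rose in both clones, and both cyclin E genes fell in clone 15, of which CCNE2 rose in clone 37. Set against the 100 tested genes nearest on its chromosome, E2F2 was still called in clone 37, and the other E2F rises and the CCNE2 fall in clone 15 (-0.256) were not. E2F1 (ENSG00000101412, chromosome 20, 33675683 to 33686404), an activator of S-phase genes, stood at 63.8, 58.1 and 60.1 CPM in parental libraries. It stood at 86.4, 105 and 91.7 CPM in clone 15 and 80.2, 76.5 and 73.1 CPM in clone 37. The 3 groups did not overlap, with clone 15 highest. E2F1 was 1.52-fold parental in clone 15 (log2 fold change 0.61, SE 0.08, BH-adjusted p 1.51e-06) and 1.24-fold in clone 37 (0.31, SE 0.06, BH-adjusted p 0.000509), and it was lower in clone 37 than in clone 15 (-0.29, SE 0.07, BH-adjusted p 0.000394). E2F2 (ENSG00000007968, chromosome 1, 23506430 to 23531220), a second activator, stood at 70.8, 64.2 and 65.3 CPM in parental, 78.4, 87.3 and 79.4 CPM in clone 15, and 100, 101 and 96.4 CPM in clone 37. Here clone 37 was highest, again with no overlap. Its log2 fold change was 0.55 (SE 0.06, BH-adjusted p 6.37e-07) in clone 37 and 0.26 (SE 0.08, BH-adjusted p 0.00847) in clone 15. The clone 15 call was lost without parental replicate 3 (0.216) and with unstranded counts (0.209).

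CCNE2 (ENSG00000175305, chromosome 8), 1 of the 2 cyclin E genes, showed the widest difference between the clones of all 50. It stood at 23.8, 25.3 and 23.3 CPM in parental, 15.9, 15.2 and 12.9 CPM in clone 15, and 33.1, 36.6 and 33.4 CPM in clone 37. Parental libraries lay between those of the clones, with no overlap. CCNE2 fell in clone 15 (log2 fold change -0.75, SE 0.11, BH-adjusted p 5.95e-06), rose in clone 37 (0.48, SE 0.08, BH-adjusted p 8.39e-05) and differed by 1.22 between the clones (SE 0.09, BH-adjusted p 5.44e-12). Of its exon bases 37.1% overlap those of 1 gene on the opposite strand, INTS8 or another. The stranded counts keep these apart only as far as the library kit marks strand. CCNE1 (ENSG00000105173, chromosome 19, 29811898 to 29824308) had the lowest CPM of the members, 16.9, 18.6 and 19.1 CPM in parental, 12.7, 14.7 and 15.3 CPM in clone 15, and 21.4, 18.8 and 21.9 CPM in clone 37. Clone 15 lay below the other groups and clone 37 overlapped parental. CCNE1 fell in clone 15 (-0.40, SE 0.12, BH-adjusted p 0.00728), a call lost without clone 15 replicate 1 (-0.297) and with thinned counts (-0.292), and its value in clone 37 was 0.16 (SE 0.10, BH-adjusted p 0.19).

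**Figure D2:**
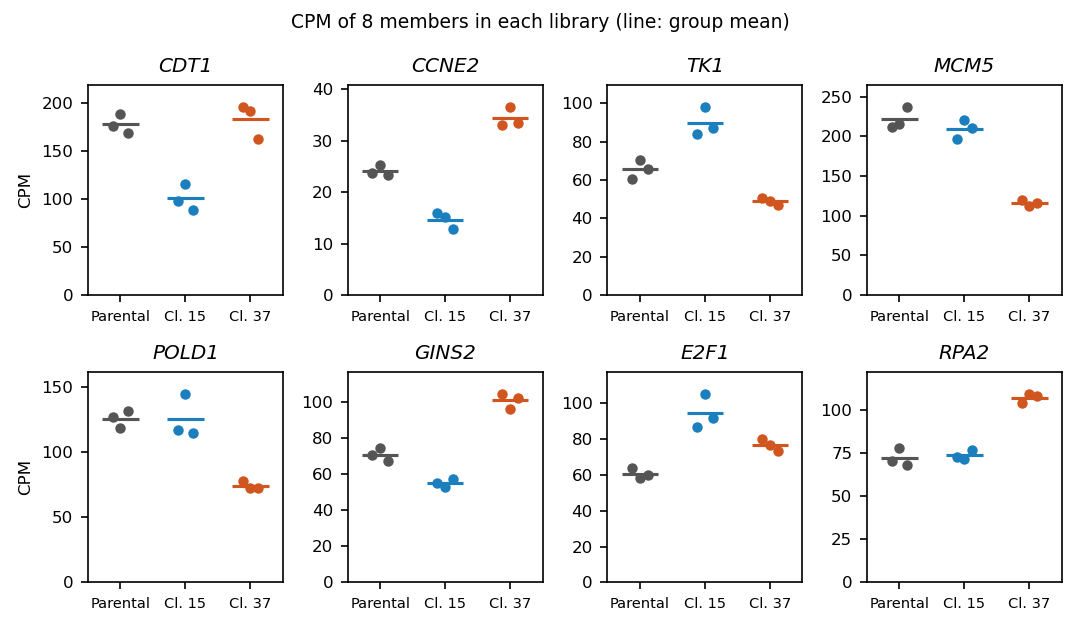
CPM (y axis, from 0) of 8 genes in each library, with the mean of each group as a line. CCNE2 and GINS2 are lowest in clone 15 and highest in clone 37, TK1 shows the reverse order, CDT1 is low in clone 15 alone, and MCM5 and POLD1 are low in clone 37 alone.

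Origin recognition genes, which mark where replication may begin, split by subunit. ORC1 (ENSG00000085840, chromosome 1, 52372829 to 52404459), the subunit that comes and goes with the cell cycle, stood at 59.3, 64.5 and 61.5 CPM in parental, 60.5, 58.2 and 64.4 CPM in clone 15, and 61.3, 63.2 and 58.0 CPM in clone 37. All 3 groups overlapped, and its log2 fold changes were -0.05 (SE 0.07, BH-adjusted p 0.541) in clone 37 and -0.05 (SE 0.09, BH-adjusted p 0.65) in clone 15. ORC2 and ORC4 fell in both clones, by 0.29 and 0.26 on the log2 scale in clone 37 and by 0.38 and 0.35 in clone 15. ORC5 fell in clone 15 (-0.68, SE 0.10, BH-adjusted p 2.98e-06) from 36.3 to 23.1 CPM and was 0.10 (BH-adjusted p 0.283) in clone 37. ORC6 fell in clone 15 (-0.52, SE 0.08, BH-adjusted p 1.48e-05) and rose in clone 37 (0.28, SE 0.06, BH-adjusted p 0.000941), and 11.1% of its 75-base words occur in another gene. ORC3 rose in clone 37 (0.22, SE 0.06, BH-adjusted p 0.00555), a call that was lost without clone 37 replicate 3 (0.167) and with unstranded counts (0.177). Once per-library trends with GC and length were taken out, the fall of ORC4 was not called in clone 37 (-0.151) or clone 15 (-0.053). Against chromosome neighbours ORC2 and ORC4 turned direction in clone 37 (0.096 and 0.164) and clone 15 (0.104 and 0.223). Of these values only that of ORC4 in clone 15 was called. Neither ORC6 change was called (0.149 in clone 37 and -0.108 in clone 15), while the ORC5 fall (-0.246) and the ORC3 rise (0.171) were.

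CDT1, which brings the helicase to origins, had the largest fall of any member in clone 15 and did not differ detectably in clone 37. CDT1 (ENSG00000167513, chromosome 16, 88803213 to 88809258) stood at 176, 188 and 169 CPM in parental, 98.0, 116 and 88.1 CPM in clone 15, and 196, 192 and 163 CPM in clone 37. Clone 15 lay below all other libraries and clone 37 overlapped parental. Its log2 fold change was -0.85 (SE 0.09, BH-adjusted p 4.68e-08) in clone 15, 0.02 (SE 0.07, BH-adjusted p 0.849) in clone 37 and 0.87 (SE 0.09, BH-adjusted p 2.06e-06) between the clones. GMNN (ENSG00000112312, chromosome 6, 24774931 to 24786099) encodes geminin, which binds and inhibits CDT1. It stood at 76.9, 85.0 and 79.1 CPM in parental, 82.1, 73.3 and 73.0 CPM in clone 15, and 102, 104 and 106 CPM in clone 37. GMNN rose in clone 37 (0.35, SE 0.06, BH-adjusted p 0.000121), above every other library, and was -0.11 (SE 0.09, BH-adjusted p 0.298) in clone 15. CDC6 (ENSG00000094804, chromosome 17, 40287633 to 40304657), the ATPase that loads MCM2-7 with ORC, stood at 128, 134 and 131 CPM in parental, 139, 124 and 140 CPM in clone 15, and 141, 131 and 142 CPM in clone 37. Its groups overlapped in all 3 comparisons, and none called it.

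The 6 helicase subunits, which form 1 ring and are needed together, did not move as a unit. In clone 37, MCM2, MCM5 and MCM6 fell, and in clone 15, MCM4, MCM6 and MCM7 fell. None rose in either. Of all genes tested, 27.3% were called lower in clone 37 and 26.2% in clone 15, and 26.7% and 25.1% higher. Against chromosome neighbours MCM6 was called in neither clone (-0.159 in clone 37 and -0.19 in clone 15). Nor was the MCM7 fall in clone 15 (-0.116). MCM4 in clone 37 (-0.333) and MCM2 in clone 15 (-0.239) were then called lower. Between the clones MCM2 (-0.006) and MCM4 (0.057) were not called against neighbours, and MCM5 was (-0.674). MCM5 (ENSG00000100297, chromosome 22, 35400063 to 35425430) stood at 212, 216 and 237 CPM in parental, 196, 220 and 210 CPM in clone 15, and 120, 113 and 116 CPM in clone 37. Its fall in clone 37 was the largest of the 50 genes there (log2 fold change -0.96, SE 0.06, BH-adjusted p 5.65e-10), and clone 15 overlapped parental (-0.12, SE 0.08, BH-adjusted p 0.241). MCM2 (ENSG00000073111, chromosome 3, 127598223 to 127622436) stood at 342, 378 and 358 CPM in parental, 335, 384 and 339 CPM in clone 15, and 266, 256 and 249 CPM in clone 37. Like MCM5 it fell in clone 37 (-0.51, SE 0.06, BH-adjusted p 2.1e-06), and its clone 15 value was -0.06 (SE 0.09, BH-adjusted p 0.584).

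MCM4 (ENSG00000104738, chromosome 8) stood at 520, 548 and 501 CPM in parental, 301, 312 and 296 CPM in clone 15, and 491, 475 and 485 CPM in clone 37. It fell in clone 15 (-0.82, SE 0.09, BH-adjusted p 2.19e-08). In clone 37 its value was -0.14 (SE 0.06, BH-adjusted p 0.0789), below all parental libraries but not called, and it was called without parental replicate 2 (-0.103) or 3 (-0.212). MCM6 (ENSG00000076003, chromosome 2, 135839626 to 135876426) was the 1 subunit that fell in both clones. It stood at 248, 277 and 272 CPM in parental, 174, 162 and 176 CPM in clone 15, and 196, 176 and 190 CPM in clone 37. The log2 fold changes were -0.67 (SE 0.08, BH-adjusted p 3.28e-07) in clone 15 and -0.53 (SE 0.07, BH-adjusted p 2.7e-06) in clone 37. The difference between the clones (0.14, BH-adjusted p 0.0409) was lost under 11 of 17 alternatives, among them leaving out clone 15 replicate 1 (0.152) or 2 (0.076), or clone 37 replicate 1 (0.114) or 3 (0.117).

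MCM7 (ENSG00000166508, chromosome 7, 100092728 to 100101940) stood at 436, 465 and 437 CPM in parental, 366, 388 and 368 CPM in clone 15, and 484, 470 and 468 CPM in clone 37. It fell in clone 15 (-0.29, SE 0.09, BH-adjusted p 0.00701) and was 0.06 (SE 0.06, BH-adjusted p 0.423) in clone 37. MCM3 (ENSG00000112118, chromosome 6, 52264009 to 52284881) stood at 362, 380 and 364 CPM in parental, 375, 360 and 380 CPM in clone 15, and 375, 367 and 368 CPM in clone 37. It was called in no comparison, with log2 fold changes of -0.02 in either clone (SE 0.06 in clone 37, SE 0.08 in clone 15). Per kb of longest transcript, MCM7 had the highest level of the 6 subunits in every library and MCM5 the lowest in all but clone 15 replicate 2, where MCM6 was lowest. The highest level was 3.01 ± 0.235 times the lowest in parental, 2.76 ± 0.149 in clone 15 and 6.10 ± 0.103 in clone 37 (n = 3, SD). The summed level of the 6 was 603 ± 20.7 CPM per kb in parental, 498 ± 10.9 in clone 15 and 531 ± 10.95 in clone 37. Of the exon bases of MCM2, 22.7% overlap 1 gene on the opposite strand, the largest such overlap.

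**Figure D3:**
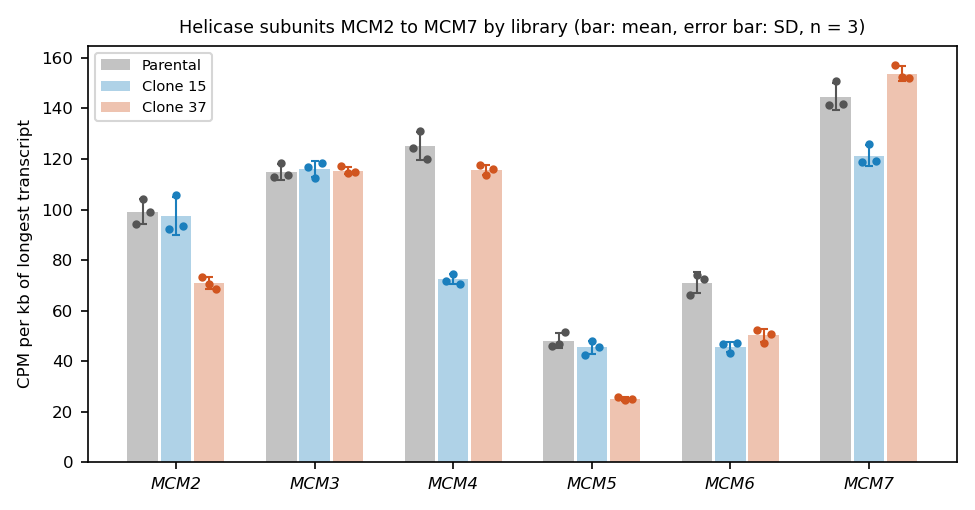
Level of each helicase subunit in CPM per kb of longest transcript (y axis, from 0), with bars for the mean of 3 libraries, error bars for the SD and points for libraries. MCM5 and MCM2 are lower in clone 37, MCM4 and MCM7 lower in clone 15, MCM6 lower in both, and MCM3 level across the groups.

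Firing factors, which turn loaded helicases into forks, were called at about the rate of all genes between the clones, 62.5% against 57.7%, with 5 of the 8 higher in clone 37 and none lower. Against chromosome neighbours, GINS2 and GINS4 lost that call and GINS3 was called lower (-0.23, BH-adjusted p 0.0137). In clone 37, 4 of the 8 rose and 2 fell, where 26.7% of all genes were higher and 27.3% lower. In clone 15, 1 rose and 4 fell, where 25.1% were higher and 26.2% lower. GINS2 (ENSG00000131153, chromosome 16, 85676198 to 85690073), a subunit of the GINS ring that joins CDC45 and MCM2-7, stood at 70.6, 74.7 and 67.3 CPM in parental, 55.3, 52.9 and 57.1 CPM in clone 15, and 104, 96.4 and 102 CPM in clone 37. No group overlapped another. It rose in clone 37 (log2 fold change 0.49, SE 0.07, BH-adjusted p 6.44e-06) and fell in clone 15 (-0.40, SE 0.09, BH-adjusted p 0.000413). Against chromosome neighbours GINS2 was called lower in clone 37 (-0.172) and in clone 15 (-0.234). DBF4 (ENSG00000006634, chromosome 7, 87876216 to 87909541), the activator of CDC7 kinase, stood at 55.3, 58.8 and 54.4 CPM in parental, 39.5, 34.9 and 42.7 CPM in clone 15, and 69.1, 71.5 and 73.5 CPM in clone 37. It rose in clone 37 (0.32, SE 0.07, BH-adjusted p 0.000528) and fell in clone 15 (-0.56, SE 0.09, BH-adjusted p 2.17e-05), and another gene holds 10.7% of its 75-base words. Against chromosome neighbours the DBF4 rise in clone 37 was called (0.198) and the fall in clone 15 was not (-0.125).

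GINS1 (ENSG00000101003, chromosome 20, 25407727 to 25452628) rose in both clones. It stood at 73.4, 78.3 and 72.6 CPM in parental, 96.5, 103 and 94.8 CPM in clone 15, and 106, 94.2 and 102 CPM in clone 37, with both clones above parental and overlapping each other. The log2 fold changes were 0.40 (SE 0.07, BH-adjusted p 5.32e-05) in clone 37 and 0.36 (SE 0.08, BH-adjusted p 0.000604) in clone 15. GINS4 rose in clone 37 (0.20, SE 0.06, BH-adjusted p 0.00821) and fell in clone 15 (-0.36, SE 0.08, BH-adjusted p 0.000519). Of GINS4 exon bases 21.2% overlap 1 gene on the opposite strand. Its clone 37 call was lost without parental replicate 3 (0.169) or clone 37 replicate 1 (0.179), without the low-count filter (0.190) and on unstranded counts (0.181). CDC7, the kinase itself, fell in clone 15 (-0.55, SE 0.08, BH-adjusted p 2.24e-06). Its call in clone 37 (-0.14, BH-adjusted p 0.0428) was lost under 10 of 17 alternatives, among them removing GC and length trends (-0.099) and leaving out parental replicate 1 (-0.154) or clone 37 replicate 1 (-0.113) or 2 (-0.127). CDC45 fell in clone 37 (-0.26, SE 0.06, BH-adjusted p 0.00105), and MCM10 and GINS3 were called in neither clone. Against chromosome neighbours GINS1 (0.024 in clone 37 and -0.045 in clone 15) and GINS4 (0.026 and -0.053) were called in neither clone. The falls of CDC7 in clone 15 (-0.092) and CDC45 in clone 37 (-0.114) were also not called.

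PCNA, the clamp that tethers polymerases to DNA, rose in clone 37, while subunits of its loader fell. Of the 6 clamp and loader genes, 1 rose and 2 fell in clone 37, where 26.7% of all genes were higher and 27.3% lower. In clone 15, 4 fell and 0 rose, where 26.2% were lower and 25.1% higher. Against chromosome neighbours the RFC4 fall in clone 37 was not called (-0.059), and the other loader falls were. PCNA (ENSG00000132646, chromosome 20, 5114953 to 5126626) had the highest level per kb of the 50 genes in all 3 groups. It stood at 212, 248 and 213 CPM in parental, 263, 247 and 254 CPM in clone 15, and 288, 279 and 293 CPM in clone 37. Clone 37 lay above all other libraries and clone 15 overlapped parental through parental replicate 2. The log2 fold change was 0.33 (SE 0.07, BH-adjusted p 0.000704) in clone 37. In clone 15 it was 0.15 (SE 0.09, BH-adjusted p 0.165), and it was called without parental replicate 2 (0.252). Against chromosome neighbours PCNA was not called in clone 37 (0.080) and was called lower in clone 15 (-0.251). RFC2 (ENSG00000049541, chromosome 7, 74231499 to 74254458), a small loader subunit, stood at 91.0, 86.8 and 82.2 CPM in parental, 54.5, 55.3 and 51.5 CPM in clone 15, and 81.5, 81.3 and 82.2 CPM in clone 37. RFC2 fell in clone 15 (-0.72, SE 0.08, BH-adjusted p 7.33e-08), as did RFC3 (-0.55, SE 0.08, BH-adjusted p 3.56e-06). The values for RFC5 (-0.22, BH-adjusted p 0.0231) and RFC1 (-0.22, BH-adjusted p 0.0478) in clone 15 were also called. The RFC5 call was lost without clone 15 replicate 1 (-0.185) or 2 (-0.165) and without the low-count filter (-0.221). The RFC1 call was lost under 10 of 17 alternatives, among them removing GC and length trends (-0.055) and leaving out parental replicate 2 (-0.157) or clone 15 replicate 1 (-0.250) or 2 (-0.099). In clone 37, RFC1 fell by 0.44 on the log2 scale (SE 0.06, BH-adjusted p 7.33e-06) and RFC4 by 0.26 (SE 0.06, BH-adjusted p 0.00162).

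Of the 9 polymerase and primase genes, the polymerase delta subunits POLD1 and POLD2 had the largest changes in clone 37, both falls. In clone 37, 2 of the 9 rose and 2 fell, where 26.7% of all genes were higher and 27.3% lower. In clone 15 POLD2 alone of the 9 was called, as lower, where 25.1% of all genes were higher and 26.2% lower. Against chromosome neighbours POLD2 was not called in clone 15 (0.067). There POLA1 (0.263) was called higher and PRIM1 (-0.384), POLD1 (-0.227) and POLD3 (-0.343) lower. POLD1 (ENSG00000062822, chromosome 19, 50384204 to 50418016), the catalytic subunit, stood at 127, 118 and 131 CPM in parental, 116, 144 and 114 CPM in clone 15, and 77.5, 72.7 and 72.2 CPM in clone 37. Clone 37 lay below every other library. POLD1 fell there (log2 fold change -0.78, SE 0.06, BH-adjusted p 7.12e-09) and was -0.04 (SE 0.09, BH-adjusted p 0.751) in clone 15, and 10.2% of its 75-base words occur in another gene. POLD2, a small accessory subunit, fell in clone 37 (-0.49, SE 0.06, BH-adjusted p 1.86e-06) and in clone 15 (-0.24, SE 0.08, BH-adjusted p 0.0185), where the call was lost without clone 15 replicate 1 (-0.167) or 3 (-0.202). POLA1, the catalytic subunit of polymerase alpha, rose in clone 37 (0.29, SE 0.06, BH-adjusted p 0.000259) from 168 to 209 CPM. In clone 15 its value was 0.17, not called, and it was called under 7 of 17 alternatives, among them removing GC and length trends (0.317) and leaving out parental replicate 2 (0.199) or clone 15 replicate 2 (0.236). PRIM1, the primase catalytic subunit, was 0.20 (BH-adjusted p 0.0493) in clone 37, a call lost under 13 of 17 alternatives, among them leaving out parental replicate 1 (0.117) or 3 (0.166) or clone 37 replicate 1 (0.177) or 3 (0.164). POLE, POLA2, PRIM2, POLD3 and POLE2 were called in neither clone. POLA2 shares 52.9% of its 75-base words with another annotated gene, PRIM1 20.8% and PRIM2 18.6%, so their counts are uncertain.

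The 3 subunits of RPA, which coats single-stranded DNA at the fork, went different ways. Per kb, the highest of the 3 was 1.74 ± 0.127 times the lowest in parental, 3.31 ± 0.414 in clone 15 and 3.74 ± 0.0462 in clone 37 (n = 3, SD). RPA2 (ENSG00000117748, chromosome 1, 27891524 to 27914746) stood at 70.5, 77.8 and 68.4 CPM in parental, 72.7, 71.9 and 76.8 CPM in clone 15, and 104, 109 and 108 CPM in clone 37. It rose in clone 37 (log2 fold change 0.54, SE 0.07, BH-adjusted p 1.7e-06), above all other libraries, and was -0.003 (SE 0.09, BH-adjusted p 0.977) in clone 15. RPA3 (ENSG00000106399, chromosome 7, 7636518 to 7718607) stood at 50.3, 51.8 and 43.5 CPM in parental, 35.6, 31.0 and 29.1 CPM in clone 15, and 32.0, 34.2 and 33.1 CPM in clone 37. It fell in both, by 0.58 (SE 0.08, BH-adjusted p 1.15e-05) in clone 37 and by 0.63 (SE 0.10, BH-adjusted p 1.01e-05) in clone 15. RPA1 (ENSG00000132383, chromosome 17, 1829702 to 1900082) stood at 168, 191 and 175 CPM in parental, 220, 225 and 231 CPM in clone 15, and 193, 186 and 188 CPM in clone 37. It rose in clone 15 (0.31, SE 0.08, BH-adjusted p 0.00335), above every parental and clone 37 library. Against chromosome neighbours the RPA1 rise in clone 15 was not called (-0.005). Nor were the RPA3 falls (-0.192 in clone 37 and -0.170 in clone 15), and the RPA2 rise in clone 37 was (0.351). FEN1, which trims Okazaki fragment flaps, rose in clone 15 (0.30, SE 0.09, BH-adjusted p 0.00501). That call was lost without parental replicate 1 (0.238) or 3 (0.235), with GC and length trends removed (0.169) and against chromosome neighbours (-0.085). Without parental replicate 2, RPA1 (0.115) and FEN1 (0.15) were also called higher in clone 37. Against chromosome neighbours both were called lower in clone 37 (-0.226 and -0.217).

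Among the nucleotide enzymes, both ribonucleotide reductase genes fell in both clones and thymidine kinase moved in opposite directions. Against chromosome neighbours RRM2 turned direction in both clones (0.054 in clone 37 and 0.104 in clone 15, neither called), and the TK1 rise in clone 15 was not called (0.132). TK1 (ENSG00000167900, chromosome 17, 78174075 to 78187233), the salvage enzyme for thymidine, stood at 60.8, 70.6 and 65.9 CPM in parental, 83.9, 98.0 and 87.3 CPM in clone 15, and 50.7, 48.9 and 47.0 CPM in clone 37. The 3 groups did not overlap. TK1 rose in clone 15 (0.41, SE 0.09, BH-adjusted p 0.000335) and fell in clone 37 (-0.46, SE 0.07, BH-adjusted p 4.26e-05), and between the clones it differed by -0.87 (SE 0.07, BH-adjusted p 7.35e-12). RRM2 (ENSG00000171848, chromosome 2, 10120698 to 10131419), the reductase subunit made in S phase, stood at 216, 239 and 209 CPM in parental, 170, 170 and 168 CPM in clone 15, and 174, 183 and 179 CPM in clone 37. Both clones lay below parental, by 0.42 (SE 0.08, BH-adjusted p 0.000162) in clone 15 and by 0.33 (SE 0.06, BH-adjusted p 0.000248) in clone 37 on the log2 scale. Of its 75-base words 28.0% occur in another gene. RRM1, the large subunit, fell by 0.37 in clone 15 (SE 0.09, BH-adjusted p 0.000902). Its value in clone 37 (-0.19, BH-adjusted p 0.0231) lost its call without any 1 of the clone 37 replicates (-0.215, -0.149 and -0.232), with the replicate block (-0.189) and with GC and length trends removed (-0.153). TYMS (ENSG00000176890, chromosome 18, 657604 to 673578), which makes thymidylate, stood at 108, 126 and 105 CPM in parental, 99.8, 102 and 106 CPM in clone 15, and 116, 112 and 119 CPM in clone 37. It was called in neither clone, with values of 0.01 (BH-adjusted p 0.941) in clone 37 and -0.17 (BH-adjusted p 0.101) in clone 15, where it was called without parental replicate 3 (-0.254). ENOSF1 and TYMSOS overlap exon bases of TYMS on the opposite strand, and the larger of these overlaps covers 39.2% of them.

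**Figure D4:**
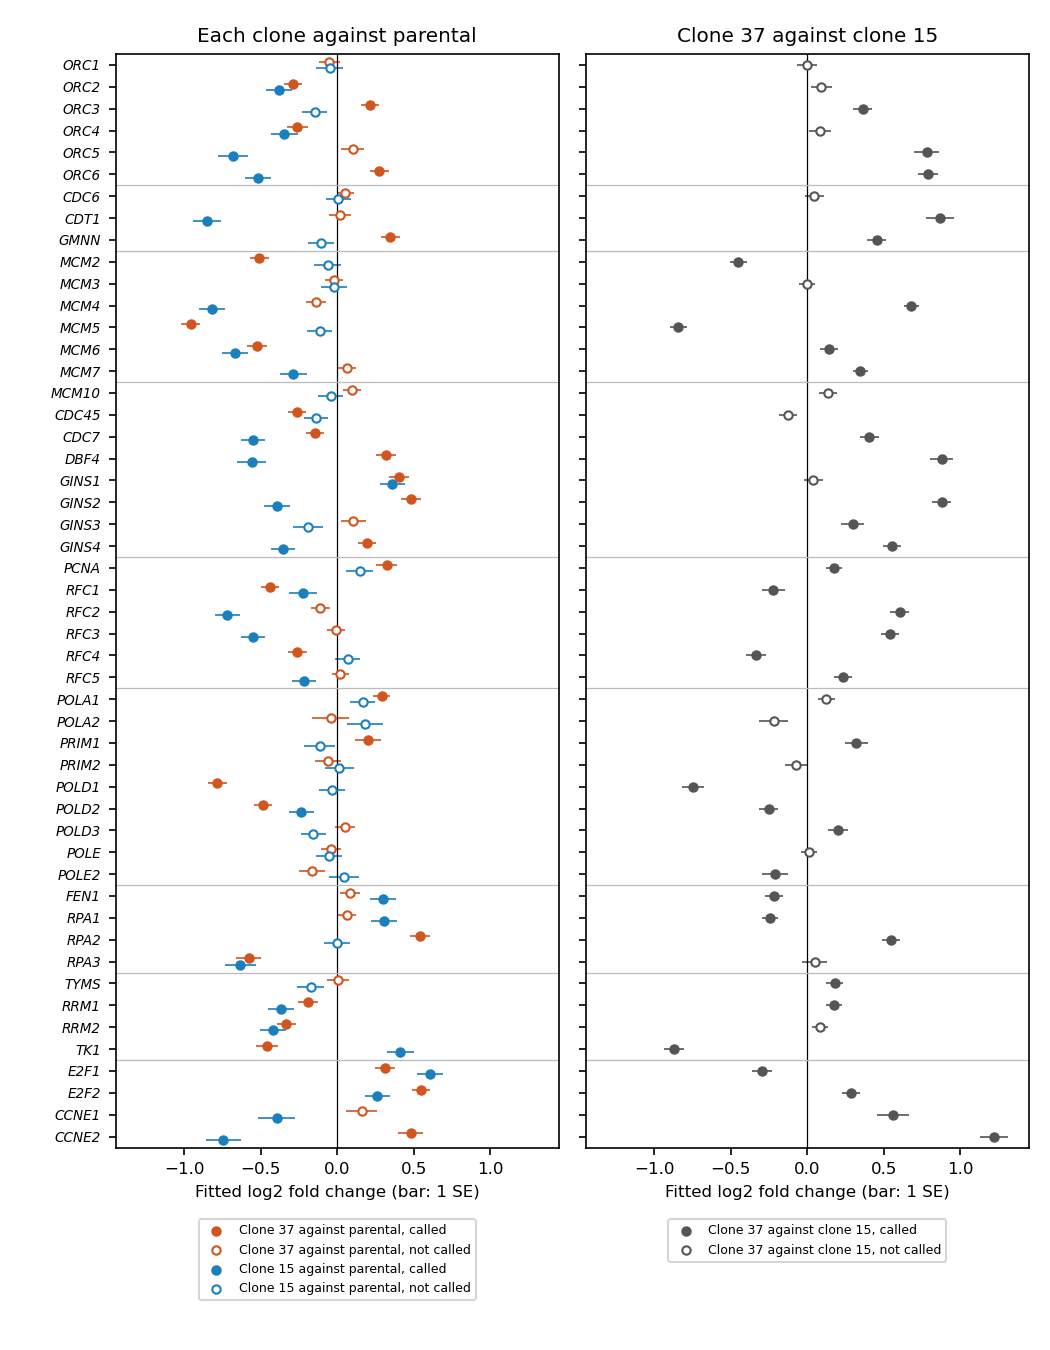
Fitted log2 fold change of each gene (x axis, with 1 SE) for each clone against parental on the left and for clone 37 against clone 15 on the right; filled points were called and open points were not. Of the 36 filled points on the right, 25 lie above 0 and 11 below.

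Set side by side, the 2 comparisons with parental share the parental libraries, so their agreement is given as counts only. GINS1, E2F1 and E2F2 were higher in both clones, 3 of 50 members, where 11.8% of the 16360 genes tested in both comparisons were. ORC2, ORC4, MCM6, CDC7, RFC1, POLD2, RPA3, RRM1 and RRM2 were lower in both, 9 of 50, where 14.6% of genes were. ORC6, DBF4, GINS2, GINS4 and CCNE2 were higher in clone 37 and lower in clone 15, and TK1 was the reverse. These were 6 of the 50 members called in opposite directions, where 6.55% of genes were. ORC1, CDC6, MCM3, MCM10, POLA2, PRIM2 and POLE were called in none of the 3 comparisons. Between the clones the largest increases in clone 37 were those of CCNE2, GINS2 (0.88, SE 0.06, BH-adjusted p 1.61e-12), DBF4 (0.88, SE 0.07, BH-adjusted p 6.72e-11) and CDT1. The largest decreases were those of TK1, MCM5 (-0.84, SE 0.06, BH-adjusted p 4.25e-13), POLD1 (-0.75, SE 0.07, BH-adjusted p 2.22e-09) and MCM2 (-0.45, SE 0.06, BH-adjusted p 5.81e-08).

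On some chromosomes the members moved alike, and position was no part of how they were chosen. All 4 members on chromosome 2, MCM6, ORC2, ORC4 and RRM2, fell in both clones, where 62.4% of all genes tested on that chromosome were called lower in clone 37 and 62.6% in clone 15, with medians of -0.38 and -0.47. On chromosome 20, E2F1, GINS1 and PCNA rose in clone 37, where 45.5% of the chromosome's genes were called higher, with a median of 0.23. In clone 15 E2F1 and GINS1 rose there, where 49.2% were higher, with a median of 0.32. All 6 members on chromosome 7, DBF4, MCM7, ORC5, POLD2, RFC2 and RPA3, fell in clone 15, where 47.5% of the chromosome's genes were called lower, with a median of -0.32. On chromosome 16, CDT1, GINS2, GINS3 and ORC6 were all higher in clone 37 than in clone 15, where 69.3% of the chromosome's genes were, with a median of 0.54. On chromosome 8 so were CCNE2, GINS4 and MCM4, where 53.8% were, with a median of 0.42. Other chromosomes held both directions. In clone 37, DBF4 rose while POLD2 and RPA3 fell on chromosome 7, where 11.8% of genes were higher and 48.2% lower, with a median of -0.29. E2F2 and RPA2 rose while CDC7 fell on chromosome 1, where 22.9% were higher and 31.2% lower (median -0.06). In clone 15, FEN1 rose and RRM1 fell on chromosome 11, where 40.6% were higher and 13.3% lower (median 0.22). Between the clones, chromosomes 19 and 20 each had 1 member higher and 1 lower, with medians of -0.05 and -0.06. Of all genes tested, 28.5% were higher and 32.8% lower on chromosome 19, and 19.4% and 31.4% on chromosome 20.

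To allow for this, each member's log2 fold change was also set against the median of its 100 nearest tested neighbours along the chromosome. The median entered the fit as a fixed value, estimated from the same libraries. The p values against neighbours thus measure spread between libraries alone. They carry neither the spread among the 100 neighbours nor the error of that median. Across the 50 members, the member's log2 fold change and that median correlated with r of 0.69 for clone 37, 0.78 for clone 15 and 0.80 for the clones against each other. This is a description over genes, which share the same libraries and in part the same neighbours. Tested against its neighbours, 21 members were called in clone 37, 8 higher and 13 lower, where 43.1% of 16335 genes were, 20.3% higher and 22.8% lower. In clone 15, 20 were called, 2 higher and 18 lower, where 42.2% of 17502 genes were, 19.9% higher and 22.3% lower. Between the clones 26 were called, 17 higher and 9 lower, where 50.8% of 17505 genes were, 25.5% higher and 25.3% lower. Of the calls against parental, 14 of 29 were kept in the same direction in clone 37 and 10 of 28 in clone 15, and 21 of 36 were kept between the clones. Calls that arose only against neighbours numbered 6, 9 and 4. In clone 37 they were RFC3 (0.182), higher, and CDT1, MCM4 (-0.333), FEN1 (-0.217), RPA1 (-0.226) and CCNE1 (-0.254), lower. In clone 15 POLA1 was higher, and CDC6 (-0.284), MCM2 (-0.239), PCNA (-0.251), PRIM1, POLD1, POLD3, RPA2 (-0.226) and TYMS (-0.269) were lower. Between the clones CDC6 (0.166) and MCM10 (0.148) were higher and MCM3 (-0.125) and PRIM2 (-0.252) lower. Most of the members called against neighbours in clone 15 were thus lower.

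Several leading results were still called against neighbours, most with a smaller value. MCM5 in clone 37 was -0.77 (BH-adjusted p 1.56e-08), POLD1 -0.62 (BH-adjusted p 2.36e-07), TK1 -0.60 (BH-adjusted p 3.82e-06) and RPA2 0.35 (BH-adjusted p 0.000273). CDT1 in clone 15 was -0.76 (BH-adjusted p 4.75e-07), MCM4 -0.47 (BH-adjusted p 9.55e-05) and RFC2 -0.38 (BH-adjusted p 0.000558). TK1 in clone 37 and RRM1 in clone 15 (-0.69, BH-adjusted p 5.89e-07) were farther from their neighbours than from parental. Other calls were lost against neighbours. In clone 37 these were ORC2, ORC4, ORC6, MCM6, CDC45, CDC7, GINS1, GINS4, PCNA, RFC4, PRIM1, RPA3, RRM2 and E2F1. In clone 15 they were ORC2, ORC6, MCM6, MCM7, CDC7, DBF4, GINS1, GINS4, POLD2, FEN1, RPA1, RPA3, RRM2, TK1, E2F1, E2F2 and CCNE2, and ORC4 was called higher than its neighbours (0.223). Between the clones they were CDT1, GMNN, MCM2, MCM4, MCM6, MCM7, GINS2, GINS4, RFC1, RFC4, POLE2, FEN1, TYMS and CCNE1. E2F1 was -0.015 in clone 37 and 0.186 in clone 15, GINS1 0.024 and -0.045, PCNA 0.080 in clone 37, RPA3 -0.192 and -0.170, and MCM6 -0.159 and -0.190. CDC45 was -0.114 in clone 37, and in clone 15 CDC7 was -0.092 and MCM7 -0.116. Between the clones, CDT1 was 0.12, GINS2 0.108, MCM4 0.057 and MCM2 -0.006. E2F2 was called in clone 37 (0.26, BH-adjusted p 0.00188) and not in clone 15 (-0.018), and CCNE2 in clone 37 (0.24, BH-adjusted p 0.0252) and not in clone 15 (-0.256, BH-adjusted p 0.0724).

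CDT1 and GINS2 lie on the same part of chromosome 16, whose neighbours had medians of 0.665 and 0.657 in clone 37. There CDT1, with a change of 0.02, was called lower than its neighbours (-0.65, BH-adjusted p 1.28e-06). GINS2, with a change of 0.49, was called slightly lower than them (-0.17, BH-adjusted p 0.0392), so its direction turned. Between the clones their neighbours had medians of 0.747 and 0.772.

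**Figure D5:**
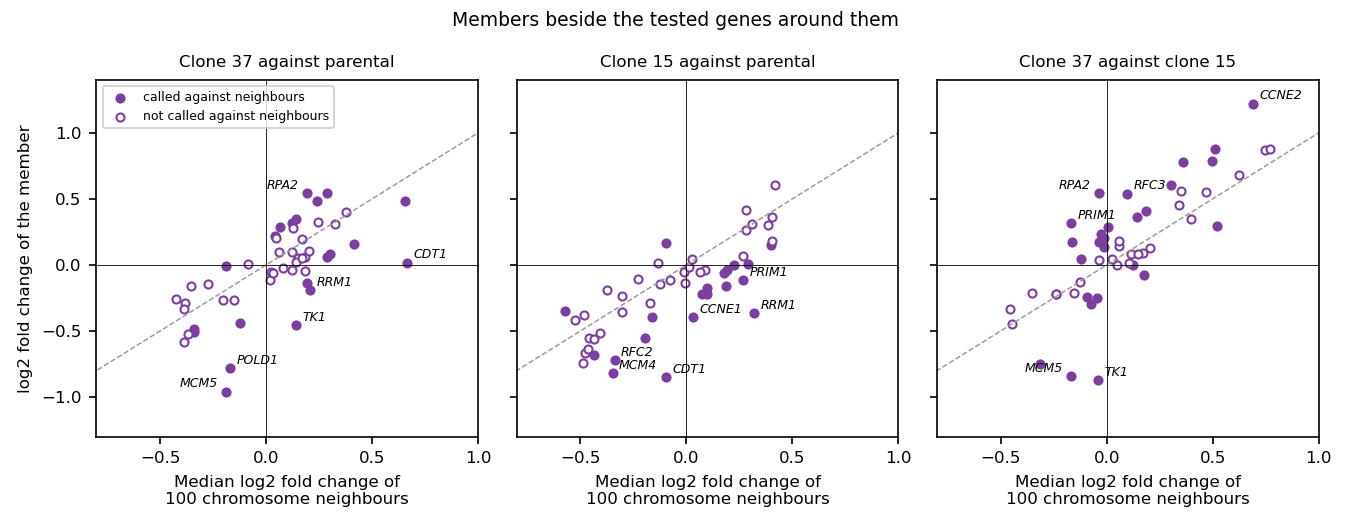
Log2 fold change of each member (y axis) beside the median of the 100 tested genes around it (x axis) in the 3 comparisons, with the line of equal values dashed and filled points for members called against their neighbours. Most points rise along the line, with r between 0.69 and 0.80, and the named genes, such as MCM5 in clone 37 and CDT1 in clone 15, lie farthest from it.

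The wider machinery was read from a list of 44 other replication genes, all tested. In clone 37, 14 rose and 6 fell (45.5% called, against 54.0% of all genes), with a median log2 fold change of 0.06. In clone 15, 13 rose and 11 fell (54.5%, against 51.4%), with a median of 0.01. Between the clones 14 were higher and 15 lower in clone 37 (65.9%, against 57.7%). LIG1, the ligase that joins Okazaki fragments, had the largest fall of the list in clone 37 (-0.92, SE 0.07, BH-adjusted p 6.57e-09) and fell in clone 15 (-0.41, SE 0.08, BH-adjusted p 0.000121). WDHD1, a fork protein that binds polymerase alpha, fell in clone 37 (-0.77, SE 0.06) and clone 15 (-0.51, SE 0.08). E2F3, another activator, rose in clone 37 (0.61, SE 0.06, BH-adjusted p 3.73e-07) and was -0.17 (BH-adjusted p 0.0901) in clone 15, and MCM8 rose in both (0.49 and 0.41). In clone 15, RNASEH2C, a subunit of the enzyme that removes ribonucleotides from DNA, rose by 0.81 (SE 0.08, BH-adjusted p 5.13e-09). RNASEH2A had 0.73 (SE 0.30, BH-adjusted p 0.0453), with 36.5% of its words in another gene. MTBP, an origin firing factor, fell in clone 15 (-0.79, SE 0.10), as did RRM2B (-0.61, SE 0.10), the p53-induced reductase subunit. Between the clones the largest increases in clone 37 were those of RRM2B (0.96, SE 0.07) and TIPIN (0.89, SE 0.08), a fork protection factor. The largest decreases were those of POLD4 (-1.51, SE 0.36) and CHTF8 (-0.99, SE 0.39, BH-adjusted p 0.0319), and 25.3% of the words of POLD4 occur in another gene.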

How the data were processed

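Raw counts per gene were deposited by the authors, 1 file per library, in the layout of STAR's gene counts after 4 summary entries. Per the submitters' processing notes, FastQC 0.11.9 and STAR 2.7.10a were used with hg38; the annotation release and filters are not given in the sources used here. Per the labels' protocols, ribosomal RNA was depleted from 500 ng of total RNA, and strand-specific libraries were amplified for 13 cycles.

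Column 4 was used, which held 92.6% to 94.0% of stranded gene counts. The summary entries (40.3% to 49.1% of read pairs) stayed out of library sizes and tests. CPM is a gene's count per 1000000 gene counts. Each comparison was fitted on its 6 libraries with edgeR 4.0.16 in R 4.3.3 (filterByExpr, TMM, glmQLFit with robust estimation, glmQLFTest); SE is the log2 fold change over the square root of F. The fit was tested on simulated data. Lengths, positions and shared 75-base words come from GENCODE 29 on GRCh38, promoters from RefSeq on GRCh38.p14. Neighbours are the 100 tested genes nearest in order on the chromosome. Python 3.11.15 and matplotlib 3.10.9 served the rest.

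The members, lists and tests were chosen with earlier results of these data known. Per library values were given for 18 core members and for the 4 called members with the largest increase and decrease in each comparison; of the wider lists, the 2 largest either way. Library replicate pairs all differed by more than sampling noise. Alternatives were RLE size factors, DESeq2 1.42.0, other filters, unstranded counts, all 9 libraries, a replicate block, thinning, protein-coding genes only, removal of GC and length trends, chromosome neighbours and leaving out each library.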

Additional observations from a re-analysis of the deposited data

Results flagged for a closer look

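In 6 of the 50 genes the clones were called in opposite directions against parental, where 6.55% of all genes tested in both comparisons were. The difference between the clones was called in each by edgeR's quasi-likelihood test, which adds no support, since calls on opposite sides of the same parental libraries chose the 6. As the log2 fold change of clone 37 against clone 15, CCNE2 had 1.221, GINS2 0.88, DBF4 0.878, ORC6 0.79 and GINS4 0.554, and TK1 had -0.871. Against the 100 genes around each, the difference was 0.529 for CCNE2, 0.367 for DBF4, 0.292 for ORC6 and -0.831 for TK1, all called, and 0.108 for GINS2 and 0.085 for GINS4, not called. Against those genes none of the 6 was called in opposite directions in the clones: ORC6 and GINS4 were called in neither, DBF4, CCNE2 and TK1 in clone 37 alone, and GINS2 lower in both (-0.172 in clone 37 and -0.234 in clone 15).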

How the results depend on the processing

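Of 2550 values of single genes under an alternative, 2352 kept their side of the threshold, 114 lost a call, 58 gained one, and 26 turned direction with a call before or after, all 26 against chromosome neighbours. Of the 2352, 95 that were called neither before nor after changed sign, 17 of them against neighbours, with values from -0.221 to 0.191. Called under all 17 alternatives were 12 of 29 genes for clone 37, 7 of 28 for clone 15 and 18 of 36 for the clones against each other. Leaving out the comparison with neighbours, these were 23, 21 and 28.

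Of values with a call before or after, those that turned in clone 37 were ORC2 0.096, ORC4 0.164, CDT1 -0.647, CDC7 0.132, GINS2 -0.172, RFC3 0.182, FEN1 -0.217, RPA1 -0.226, RRM2 0.054, E2F1 -0.015 and CCNE1 -0.254. In clone 15 they were ORC2 0.104, ORC4 0.223, CDC6 -0.284, GINS1 -0.045, PCNA -0.251, POLD2 0.067, FEN1 -0.085, RPA1 -0.005, RRM2 0.104 and E2F2 -0.018. Between the clones they were MCM7 -0.052, GINS3 -0.226, RFC1 0.018, RFC4 0.121 and POLE2 0.142. Against neighbours, 8 members were called higher in clone 37 and 2 in clone 15.

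The clone 37 median of 0.013 was -0.010 with the 1 CPM filter, -0.024 with unstranded counts and -0.096 against neighbours, and -0.039 to 0.041 leaving out 1 library. The clone 15 median of -0.151 was -0.207 with unstranded counts, -0.125 with thinned counts and -0.107 among protein-coding genes, and -0.206 to -0.111 leaving out 1 library. Between the clones the median of 0.138 was 0.083 against neighbours and 0.067 to 0.185 leaving out 1 library. The cause of these shifts was not tested. Counts of calls leaving out 1 library ranged from 25 to 35, 24 to 29 and 30 to 38.

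Replicate numbers did not pair the libraries: deviations of same-numbered libraries correlated between -0.192 and 0.037, and the labels name no shared origin. With the replicate block the members called numbered 26 for clone 37, 27 for clone 15 and 39 for the clones against each other. DESeq2 called 27, 27 and 34.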

Other observations

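Genes of the next cell cycle phase were read from a list of 25 mitosis genes, all tested. In clone 37, 10 rose and 5 fell (60.0% called, against 54.0% of all genes), with a median log2 fold change of 0.06. In clone 15, 8 rose and 9 fell (68.0%, against 51.4%), with a median of 0.02. Between the clones 9 were higher and 8 lower in clone 37 (68.0%, against 57.7%). CDC20, the activator of the anaphase-promoting complex, rose in clone 15 (0.90, SE 0.08, BH-adjusted p 1.06e-09) and in clone 37 (0.48, SE 0.06, BH-adjusted p 3.64e-06). KIF20A, a kinesin of the central spindle, rose in clone 15 (0.62, SE 0.08), and KIF23 in clone 37 (0.32, SE 0.06). NUF2, a kinetochore subunit, fell in clone 37 (-0.63, SE 0.07) and clone 15 (-0.86, SE 0.09), as did BUB1, a checkpoint kinase (-0.42, SE 0.06 and -0.49, SE 0.08). Between the clones MAD2L1 (0.41, SE 0.06) and BUB1B (0.30, SE 0.06) were higher in clone 37, and CDC20 (-0.43, SE 0.055) and KIF20A (-0.38, SE 0.06) were lower. The summed level of the list was 4617 ± 162 CPM in parental, 4415 ± 263 in clone 15 and 4642 ± 69.6 in clone 37 (n = 3, SD). Parental overlapped both clones, and every clone 15 library lay below every clone 37 library.

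Of 12 p53 targets 11 were tested: 1 rose and 4 fell in clone 37 (45.5% called, against 54.0% of all genes), and 3 rose and 5 fell in clone 15 (72.7%, against 51.4%). Their summed level was 670 ± 13.95 CPM in parental, 636 ± 20.8 in clone 15 and 610 ± 4.495 in clone 37 (n = 3, SD). RRM2B is in this list and in that of other replication genes.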
